A study of Mus musculus with 6 samples.

Results

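The clustered protocadherins are cell-surface adhesion proteins encoded by neighbouring genes in 3 clusters, alpha, beta and gamma. They were followed here in RNA of spinal cords taken whole from E13.5 mouse embryos. Members were all rows whose symbol names a clustered isoform and that held at least 10 counts in 3 or more of the 6 libraries. Of 57 such symbols among the 55433 genes in the files, 54 passed, which were 12 alpha, 21 beta and 21 gamma isoforms. The study compared 3 control samples of genotype NFIA-ff with 3 samples of genotype NFIA-ff, Nestin-cre, called NFIAcKO, all of strain C57BL/6J. Both groups carried the floxed NFIA alleles, and cre was present in NFIAcKO alone, so effects of the transgene and of the deletion cannot be told apart. Nestin-cre is a driver for neural progenitors and the cells derived from them, while a whole cord also holds vessels, blood and microglia. The labels name no litters and do not say whether a sample is 1 embryo.

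Each alpha or gamma gene has its own large first exon, with its own promoter, which is spliced to constant exons shared by the whole cluster. The beta genes have no constant exons and are mostly single-exon genes. A neuron transcribes a small set of isoforms through promoter choice, in which CTCF and cohesin bring a promoter to a distant enhancer. The proteins recognise identical isoforms on another membrane, and neurons use them in the avoidance between their own branches, in tiling of axons and in synapse formation. In the spinal cord the gamma cluster is known for its role in the survival of interneurons. The C-type isoforms (Pcdhac1, Pcdhac2, Pcdhgc3, Pcdhgc4 and Pcdhgc5) are the exception to promoter choice and are expressed more widely among neurons.

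Values below are in the order of replicates 1, 2 and 3. Library depth was 43393053 to 51465763 counts in genes. Nfia, the targeted gene, had counts of 2641, 3110 and 3683 in the controls and of 5144, 5016 and 5636 in NFIAcKO. Its level was therefore above the controls in the libraries labelled NFIAcKO (log2 fold change 0.75, SE 0.11, edgeR adjusted p = 0.0031). Counting ran over the whole gene and cannot test the deletion of some of its exons, so every direction given here is that of the labels. Summed levels of 7 neuronal markers were 8294 to 8580 CPM (counts scaled to library size) in the controls and 9288 to 9746 CPM in NFIAcKO, and 2 of the 7 rose (Dcx and Elavl3). The 7 progenitor markers summed to 2360 to 2570 and 2295 to 2582 CPM, with 2 that rose (Nes and Mki67) and 2 that fell (Hes5 and Fabp7). Microglial markers summed to 95.6 to 105 and 73.0 to 82.8 CPM. Of the 6 tested 3 fell, and Trem2, a defining marker, was at 0 in every library. Endothelial markers summed to 245 to 291 and 310 to 332 CPM, and 3 of 5 rose and 1 fell. Over all tested genes 7.86% were called higher and 6.08% lower. Once a trend with gene length and GC content was removed from each library, 3 neuronal markers rose and no progenitor marker was called. With it removed, 1 microglial marker fell, 2 endothelial markers rose and no endothelial marker fell. The part of these shifts in the protocadherin values was not tested. In whole tissue, more cells of a type and more RNA per cell cannot be told apart.

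The 3 clusters lie one after the other on the plus strand of chromosome 18 (GRCm38, GENCODE M21). The alpha cluster spans 36930184 to 37187661, the beta cluster 37264938 to 37524479 and the gamma cluster 37661793 to 37841873. Exons shared within the cluster make up 2860 or 2864 bp of each alpha gene and 2116 to 3157 bp of each gamma gene. Reads that matched several genes were set aside in the files and made up 3.90 to 4.22% of a library. Pcdhac2 keeps 3028 of 5888 exonic bp that no other gene on its strand covers, and Pcdhga3 keeps 2601 of 4720 bp. Levels are therefore compared between genes as CPM per kb of this unshared exonic sequence. For several gamma genes it includes exons beyond the large first exon, which adds uncertainty to their level per kb. Examples are Pcdhgb5 (4614 bp, first exon 2551 bp) and Pcdhgc5 (4606 bp, first exon 2622 bp). The symbol Pcdha11 stands for 2 gene identifiers in the annotation, so its level per kb, taken on the first of them, is uncertain. Overlap with antisense genes adds uncertainty for Pcdha6, Pcdha11, Pcdha12, Pcdhb12, Pcdhga1, Pcdhga7, Pcdhga8, Pcdhgb7, Pcdhga11, Pcdhga12 and Pcdhgc3, since the strand setting of the counting is not given in the sources used here.

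The symbols that fell short of the count rule were Pcdhga10, Pcdha4 and Pcdhb1. Pcdhga10 was listed at 0 in all 6 libraries, where a count of 0 allows up to 3 counts, or 0.0570 to 0.0683 CPM. Its first exon, of 2613 bp, is free on its own strand, but the antisense gene Gm26672 runs across all of it, which leaves 0 exonic bp outside other genes when both strands are considered. Gm26672 itself held 27 to 48 counts per library. The genes on either side, Pcdhgb6 and Pcdhgb7, stood at 23.0 to 35.2 and 10.8 to 17.9 CPM. Pcdha4 held 1 to 9 counts, and 494 of its 5768 exonic bp are in no other gene on its strand, since the read-through gene Gm42416 covers most of its first exon. Gm42416 was listed at 0 throughout. Pcdhb1 held 2 counts in control replicate 2 and 0 elsewhere, and no other gene overlaps its 2588 bp.

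Of the 54 isoforms, 1 rose in NFIAcKO, none fell and 53 did not pass edgeR's test at an adjusted p under 0.05. The isoform that rose was Pcdhb15. Over all 17711 tested genes 13.9% were called, 7.86% higher and 6.08% lower, against 1.85% of the isoforms. Of all calls 56.4% were higher, and 42.4% with upper quartile scaling. At an unadjusted p under 0.05 there were 10 isoforms (18.5%, against 29.8% of all tested genes). DESeq2 called 6 isoforms and limma-voom none, where DESeq2 called 25.3% of the 13045 genes it gave an adjusted p and limma-voom 12.3% of all 17711. Fold changes were small and mostly above 0. On the log2 scale they ran from -0.35 (Pcdhb12) to 0.55 (Pcdhb15) with a median of 0.16, against a median of -0.01 over all tested genes. Of the 54 isoforms 43 were above 0 (79.6%), where 48.9% of all tested genes were. With upper quartile scaling 7 alpha, 13 beta and 17 gamma isoforms were above 0. Many isoforms of a cluster were lowest in the same library, as 14 of 21 gamma isoforms in control replicate 2. Their signs are therefore not independent of each other. Standard errors on that scale ran from 0.09 for Pcdhgc3 to 0.40 for Pcdha8, so a missed threshold does not show that an isoform was unaltered.

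**Figure D1:**
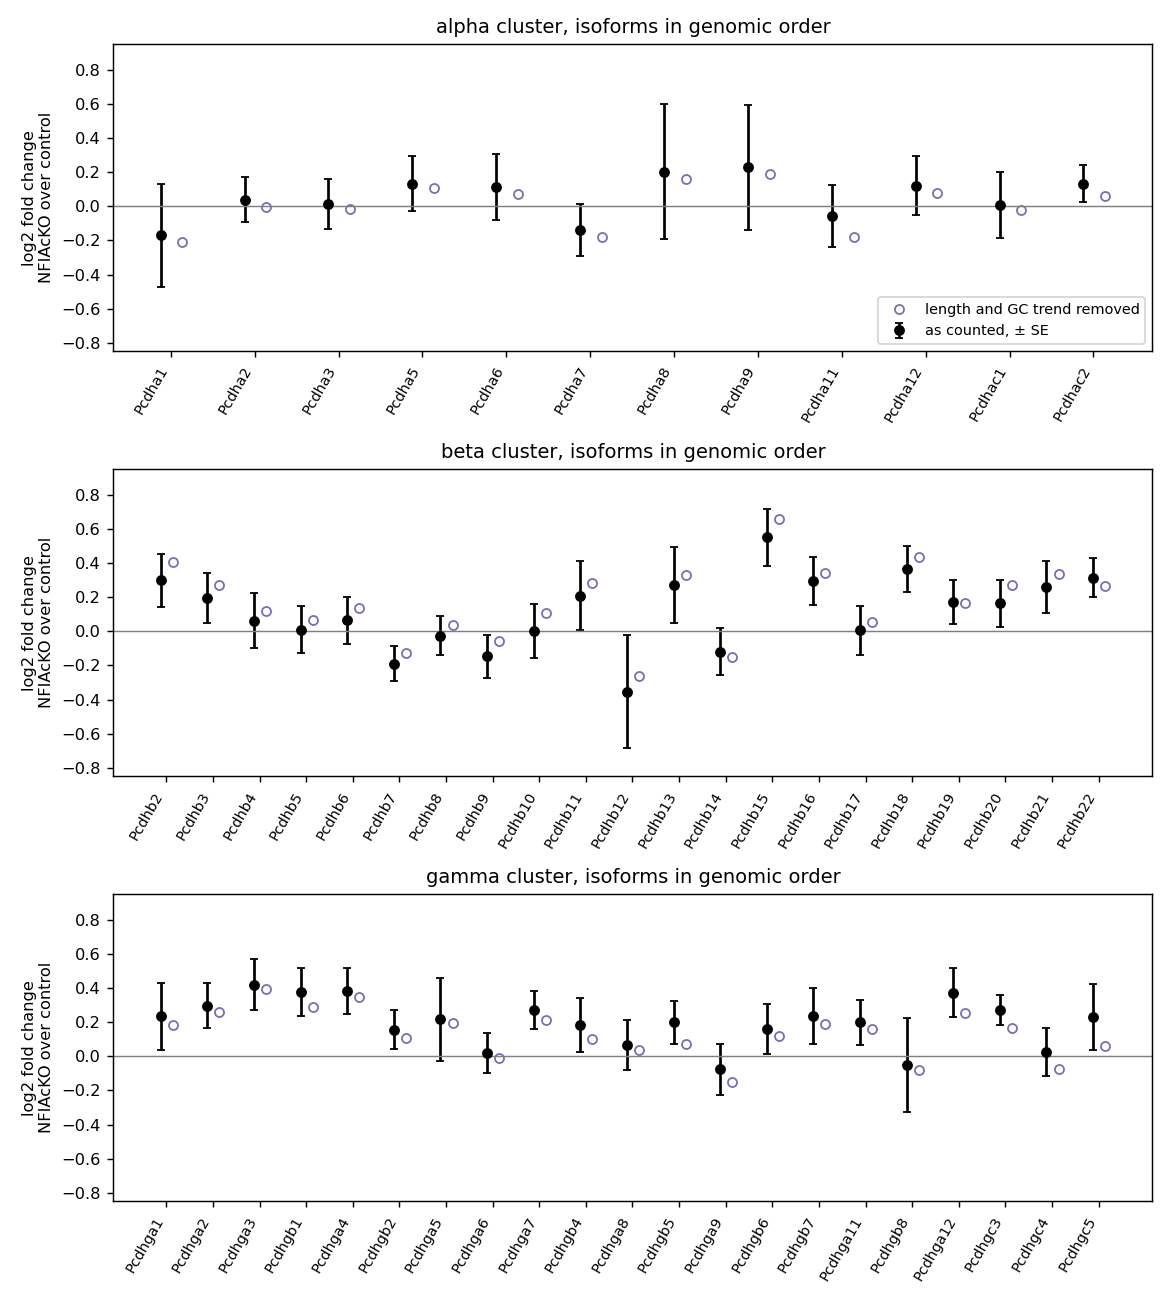
Log2 fold change of each isoform, NFIAcKO over control, in the order of the genes along each cluster. Filled points with bars are the values as counted ± SE from edgeR. Open points are the values after a trend with gene length (whole exonic length) and GC content was removed from each library. Pcdhb15 lies at the top of the beta cluster at 0.55, and 19 of the 21 gamma isoforms lie above 0 as counted (17 with upper quartile scaling).

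None of the 12 alpha isoforms passed the test, with edgeR adjusted p values of 0.45 to 0.99. DESeq2 and limma-voom called none of them either, and none had an unadjusted p under 0.05 in edgeR. Their median log2 fold change was 0.08, and 9 were above 0 and 3 below. With the length and GC trend removed by the whole exonic length the median was 0.03. By the unshared length, an alternative added after the data were seen, it was 0.19. The median turned to -0.01 without control replicate 2 and to -0.01 without NFIAcKO replicate 3, so no direction is given for the cluster. No alpha isoform had groups that did not overlap, while over all tested genes all 3 NFIAcKO libraries lay above all 3 controls for 17.3% and below them for 16.1%.

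Pcdha1, the first isoform of the cluster, had its lowest fold change. It stood at 1.002, 1.23 and 2.02 CPM in the controls and at 1.095, 0.993 and 1.69 CPM in NFIAcKO (log2 fold change -0.17, SE 0.30, adjusted p = 0.75). Replicate 3 was the highest of each group. Pcdha9 had the highest fold change of the cluster and the widest spread of all 54 isoforms, with a biological coefficient of variation of 31.1%. It stood at 8.29, 7.83 and 3.31 CPM in the controls and at 6.69, 6.07 and 9.99 CPM in NFIAcKO (log2 fold change 0.23, SE 0.37, adjusted p = 0.73). A single library, control replicate 3, held the low value, and the other controls lay within the range of NFIAcKO. The counts were 154 there and 281 to 472 in the other libraries. Pcdha7 and Pcdha11, close by in the cluster, were at their highest in that same library (8.33 and 3.29 CPM). Pcdha3, the most abundant alpha isoform per kb after Pcdhac2, stood at 7.40, 6.72 and 9.40 CPM in the controls and at 7.73, 7.41 and 8.62 CPM in NFIAcKO (log2 fold change 0.01, SE 0.15, adjusted p = 0.96). The controls spanned the whole range of NFIAcKO.

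Pcdhb15 rose by 1.46-fold and was the single isoform of the beta cluster called. The gene lies on chromosome 18 from 37473540 to 37476340 on the plus strand, as 1 exon of 2801 bp that no other annotated gene overlaps. Its counts were 123, 152 and 140 in the controls and 178, 206 and 218 in NFIAcKO. As levels these were 2.80, 2.89 and 3.01 CPM against 3.68, 4.45 and 4.62 CPM, so that all 3 NFIAcKO libraries lay above all 3 controls. The mean rose from 2.90 ± 0.106 to 4.25 ± 0.5005 CPM with the SD over 3 libraries. The log2 fold change in edgeR was 0.55 ± 0.17 (SE), with an adjusted p of 0.042. The call lay close to the threshold. Leaving out a library kept the log2 fold change between 0.47 and 0.65, but the call held only without control replicate 3 (adjusted p = 0.026, where 28.4% of all genes were called). It was lost without control replicate 1 (0.144, where 2.76% of all genes were called) or control replicate 2 (0.121 and 6.16%). It was also lost without NFIAcKO replicate 1 (0.0759 and 2.48%), replicate 2 (0.121 and 5.66%) or replicate 3 (0.144 and 2.61%). Upper quartile scaling (0.0570), limma-voom (0.0542) and a block on the replicate number (0.0532) gave adjusted p values just above the threshold.

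The other 20 beta isoforms did not pass. Over the cluster the median log2 fold change was 0.16, with 15 of 21 isoforms above 0 (13 with upper quartile scaling). That median was 0.01 without control replicate 3, the library in which 13 of the 21 beta isoforms had their lowest level of the 6. Groups did not overlap for 5 isoforms that were higher in NFIAcKO (Pcdhb2, Pcdhb15, Pcdhb16, Pcdhb18 and Pcdhb22), or 23.8% of the cluster against 17.3% of all tested genes. They did not overlap either for 1 of the 21 that was lower, Pcdhb7, where 16.1% of all tested genes were lower in this way. The run from Pcdhb15 to Pcdhb22 at the end of the cluster had log2 fold changes of 0.01 (Pcdhb17) to 0.55, all above 0, an observation made after the values were seen. That of Pcdhb17 was below 0 with upper quartile scaling, without control replicate 3 and without NFIAcKO replicate 2. Between the groups within replicates 1 and 2, log2 differences of the run went from -0.11 (Pcdhb17) to 0.51 (Pcdhb15). Pcdhb20 was at -0.07 and Pcdhb19 at 0.02 there. Within replicate 3 the run went from 0.32 (Pcdhb17) to 0.66 (Pcdhb20).

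Pcdhb18 had the next highest fold change of the cluster after Pcdhb15. It stood at 8.52, 8.45 and 6.63 CPM in the controls and 10.9, 9.72 and 9.74 CPM in NFIAcKO (log2 fold change 0.36, SE 0.13, adjusted p = 0.079). It passed in DESeq2 (0.0452) and once a trend with gene length and GC content was removed from each library (0.44, adjusted p = 0.045), where Pcdhb15 was called too and 7.69% of all genes were. Pcdhb17, the most abundant beta isoform per kb, stood at 27.6, 29.6 and 18.8 CPM against 24.9, 27.9 and 23.4 CPM (log2 fold change 0.01, SE 0.15, adjusted p = 0.99), with control replicate 3 the lowest. Pcdhb7, next in abundance, stood at 17.9, 17.6 and 16.5 CPM in the controls and at 15.7, 15.5 and 14.4 CPM in NFIAcKO (log2 fold change -0.19, SE 0.10, adjusted p = 0.23). All 3 controls lay above NFIAcKO by a small margin. The lowest fold change of all 54 isoforms was that of Pcdhb12, which was scarce at 0.911, 1.54 and 0.688 CPM against 1.01, 0.648 and 0.805 CPM (log2 fold change -0.35, SE 0.33, adjusted p = 0.52). Its counts were 30 to 81 per library, and an antisense gene covers 1927 of its 3034 bp.

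**Figure D2:**
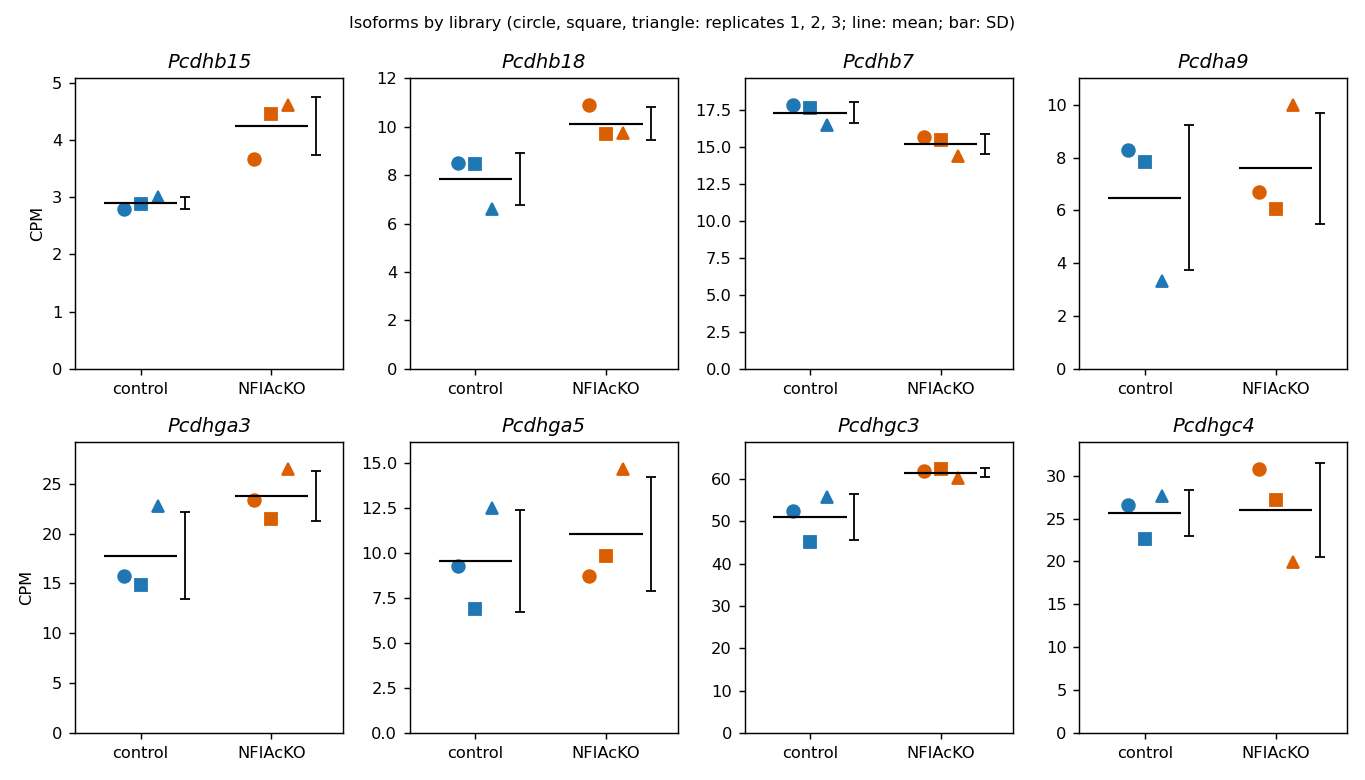
Level in CPM of 8 isoforms in each library, with axes from 0. Circles, squares and triangles are replicates 1, 2 and 3, the line is the mean and the bar the SD of 3 libraries. Pcdhb15 separates the groups at 2.80 to 3.01 against 3.68 to 4.62 CPM, Pcdha9 is low in control replicate 3 alone, and Pcdhga5 is highest in replicate 3 of each group.

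The median log2 fold change of the gamma isoforms was 0.22, but none of the 21 passed edgeR's test (lowest adjusted p 0.056, for Pcdhgc3). Of them 19 were above 0 and 2 below, and 7 had an unadjusted p under 0.05 (33.3%, against 29.8% of all tested genes). DESeq2 called 3, where it called 25.3% of the genes it gave an adjusted p, and limma-voom called none. The 19 became 17 with upper quartile scaling and 17 with the length and GC trend removed, where the median was 0.16, as in the beta cluster. That trend used the whole exonic length. By the unshared length the gamma median was 0.28 with 20 isoforms above 0, and the beta median was 0.17. Leaving out a library gave medians of 0.15 to 0.27 and 15 to 20 isoforms above 0. The beta median was the higher of the pair without control replicate 1 (0.21 against 0.19) and without control replicate 2 (0.21 against 0.15). Without control replicate 3 edgeR called 6 isoforms (Pcdhga2, Pcdhga3, Pcdhga4, Pcdhga12, Pcdhgb6 and Pcdhgc3), all higher, in the fit that called 28.4% of all genes. Without each of the other libraries in turn it called none. With no filter on low counts it called 3 (Pcdhga3, Pcdhga4 and Pcdhgc3) and 10.2% of all genes. All 3 NFIAcKO libraries lay above all 3 controls for 6 isoforms, Pcdhgb1, Pcdhga4, Pcdhgb2, Pcdhga7, Pcdhgc3 and Pcdhgc5. That was 28.6% of the cluster against 17.3% of all tested genes. All 3 lay below the controls for 0 gamma isoforms, against 16.1% of all tested genes. Control replicate 2 had the lowest level of the 6 libraries for 14 of the 21, and NFIAcKO replicate 3 the highest for 12.

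By subfamily, median log2 fold changes were 0.23 for the 11 gamma A, 0.18 for the 7 gamma B and 0.23 for the 3 gamma C isoforms. With the length and GC trend removed by the whole exonic length, these medians were 0.19, 0.10 and 0.06. Pcdhga3 had the highest fold change of the cluster. It stood at 15.7, 14.9 and 22.8 CPM in the controls and 23.3, 21.5 and 26.5 CPM in NFIAcKO (log2 fold change 0.42, SE 0.15, adjusted p = 0.077). Control replicate 3 lay inside the range of NFIAcKO, so the groups overlapped. It was called in DESeq2 (0.0286), with the replicate number as a block (0.44, adjusted p = 0.019) and with that block and the trend removed (0.40, adjusted p = 0.025, where 8.46% of all genes were called). Pcdhga9 had the lowest fold change, at 8.72, 7.08 and 7.27 CPM against 7.64, 6.00 and 8.19 CPM (log2 fold change -0.08, SE 0.15, adjusted p = 0.77). Pcdhgb6, the most abundant gamma isoform per kb after Pcdhgc3, stood at 25.1, 23.0 and 34.8 CPM against 27.0, 30.3 and 35.2 CPM (log2 fold change 0.16, SE 0.15, adjusted p = 0.52). Its level was highest in replicate 3 of both groups.

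The 5 C-type isoforms spanned the range of abundance, and none passed the test in edgeR. Of these, 1 had an unadjusted p under 0.05, DESeq2 called 1 and limma-voom none, and their median log2 fold change was 0.13. That median was 0.06 with the length and GC trend removed by the whole exonic length. By the unshared length it was 0.18, with all 5 above 0. It was 0.05 without control replicate 2 and 0.09 without NFIAcKO replicate 3. Pcdhgc3, which acts in dendrite growth of cortical neurons, was the most abundant of all 54 isoforms. It stood at 52.4, 45.1 and 55.8 CPM in the controls and at 62.0, 62.4 and 60.2 CPM in NFIAcKO. The groups did not overlap, with means of 51.1 ± 5.48 and 61.5 ± 1.15 CPM with the SD over 3 libraries. The log2 fold change in edgeR was 0.27 ± 0.09 (SE), with an adjusted p of 0.056. DESeq2 called it (0.0308), and the value was 0.17 (adjusted p = 0.13) with the length and GC trend removed. That trend used the whole exonic length. With the unshared length for each isoform, an alternative added after the data were seen that called 7.67% of all genes, the value was 0.28 (adjusted p = 0.038).

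Pcdhgc4, the gamma isoform known to be needed for the survival of interneurons, stood at 26.6, 22.6 and 27.7 CPM in the controls and 30.8, 27.2 and 19.99 CPM in NFIAcKO. NFIAcKO replicates 1 and 3 were the highest and the lowest of all 6 libraries, and the group means were 25.6 ± 2.68 and 26.0 ± 5.51 CPM with the SD over 3 libraries. The log2 fold change in edgeR was 0.02 ± 0.14 (SE), with an adjusted p of 0.94. Pcdhgc5 was scarce, at 2.39, 2.20 and 2.43 CPM against 2.56, 2.44 and 3.22 CPM (log2 fold change 0.23, SE 0.19, adjusted p = 0.47). Its groups did not overlap, though the nearest libraries stood at 2.43 and 2.44 CPM. Pcdhac2, which acts in the tiling of serotonergic axons, stood at 18.7, 15.8 and 18.6 CPM against 19.7, 18.2 and 20.3 CPM (log2 fold change 0.13, SE 0.11, adjusted p = 0.45). Pcdhac1 had the fold change nearest to 0 of the 5, at 2.46, 2.09 and 2.17 CPM against 2.11, 2.35 and 2.29 CPM (log2 fold change 0.01, SE 0.19, adjusted p = 0.99). Both alpha C-type isoforms overlapped between the groups.

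**Figure D3:**
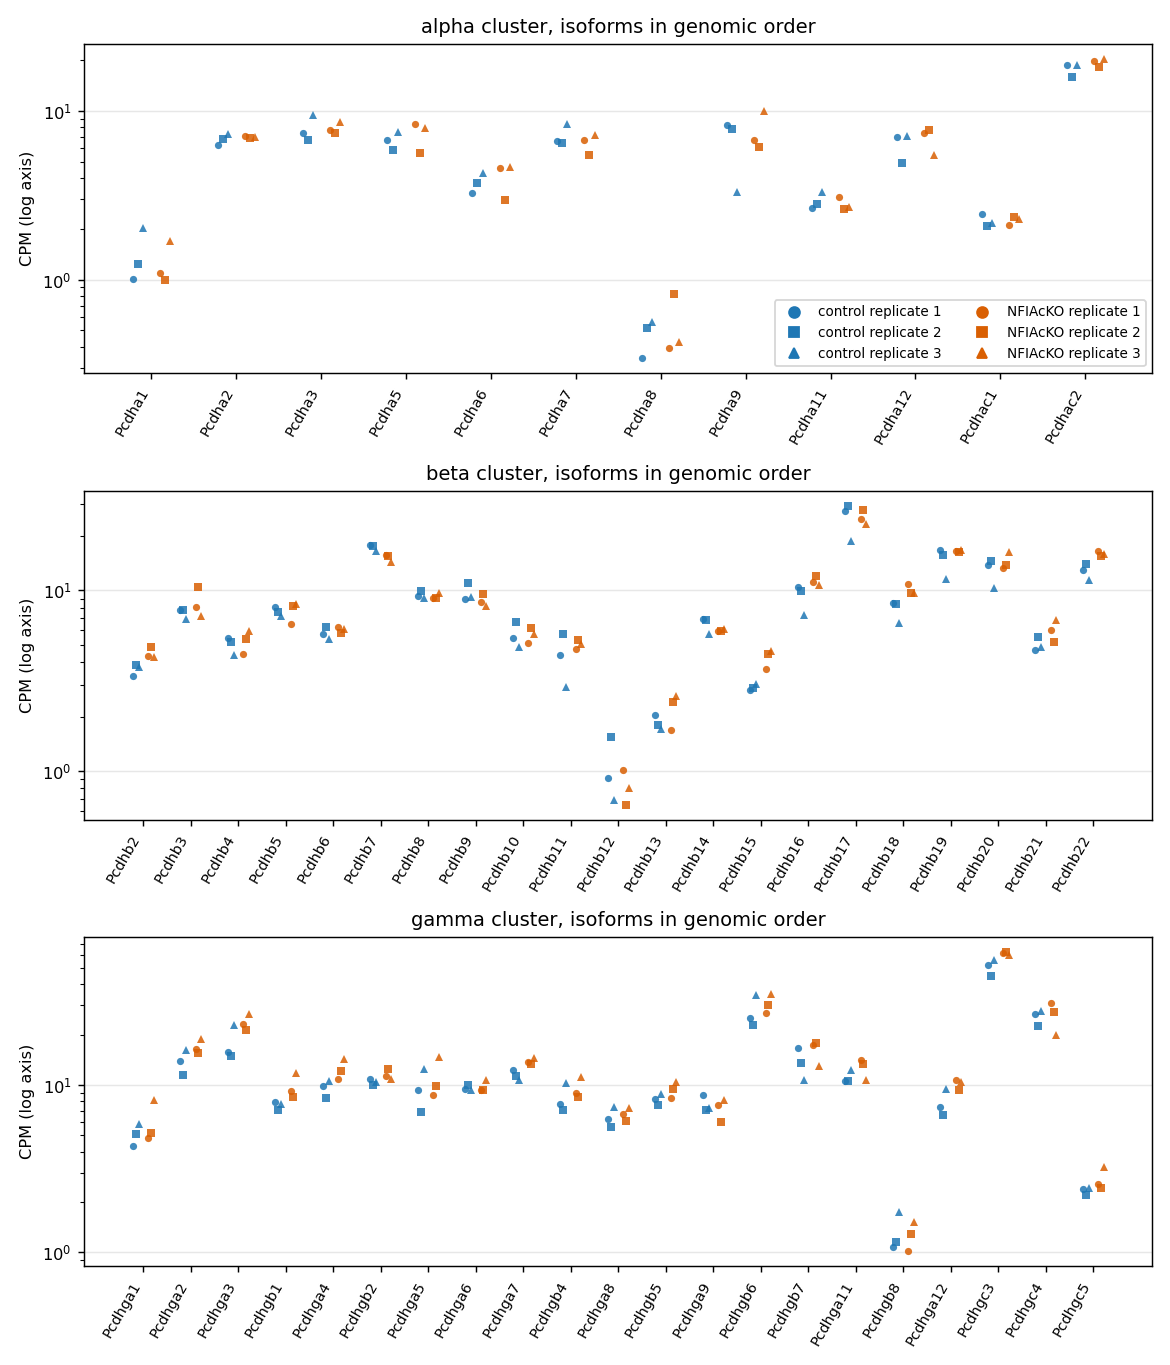
Level of each isoform in each of the 6 libraries in CPM on a log axis, in genomic order along the alpha, beta and gamma clusters. Colours are the groups and shapes the replicate numbers. Levels differ more between isoforms than between groups, from under 1 CPM for Pcdha8 to 45.1 to 62.4 CPM for Pcdhgc3.

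Summed over its members, the alpha cluster reached 70.7, 64.7 and 73.9 CPM in the controls and 74.9, 67.2 and 78.3 CPM in NFIAcKO. The groups overlapped, and the log2 difference was 0.07 (exact two-sided permutation p = 0.40). It was 0.02 with the length and GC trend removed, 0.02 without control replicate 2, 0.03 without NFIAcKO replicate 3, 0.12 without control replicate 3 and 0.14 without NFIAcKO replicate 2. With 3 libraries against 3 this exact test cannot go below p = 0.10. The beta cluster summed to 184, 193 and 152 CPM against 185, 194 and 189 CPM. Here control replicate 3 alone was low, and the difference was 0.11 (exact permutation p = 0.40), or 0.01 without that library. The gamma cluster summed to 267, 237 and 295 CPM against 305, 302 and 322 CPM. All 3 NFIAcKO libraries lay above all 3 controls, the difference was 0.22 or 1.17-fold, and the exact permutation p was 0.10, the smallest the design allows. That difference was 0.15 with the length and GC trend removed and 0.14 to 0.30 when 1 library was left out. The summed level of the 7 neuronal markers, of which 2 rose, did not overlap between the groups either and was higher in NFIAcKO, and its part in the gamma sum was not tested. The C-type isoforms summed to 102, 87.8 and 107 CPM against 117, 113 and 106 CPM, which overlapped (0.18, exact permutation p = 0.20). That difference was 0.08 with the trend removed and 0.10 without control replicate 2.

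Ratios between clusters within a library do not depend on library scaling. Alpha over gamma was 0.265, 0.273 and 0.250 in the controls and 0.245, 0.222 and 0.243 in NFIAcKO. The groups did not overlap, and the log2 difference was -0.15 (exact permutation p = 0.10, and 0.30 when adjusted over 3 ratios). Beta over gamma was 0.689, 0.812 and 0.517 against 0.604, 0.643 and 0.587 (exact permutation p = 0.60), and alpha over beta 0.384, 0.336 and 0.485 against 0.406, 0.346 and 0.414 (exact permutation p = 1.0). Control replicates 2 and 3 were the extremes of both latter ratios.

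**Figure D4:**
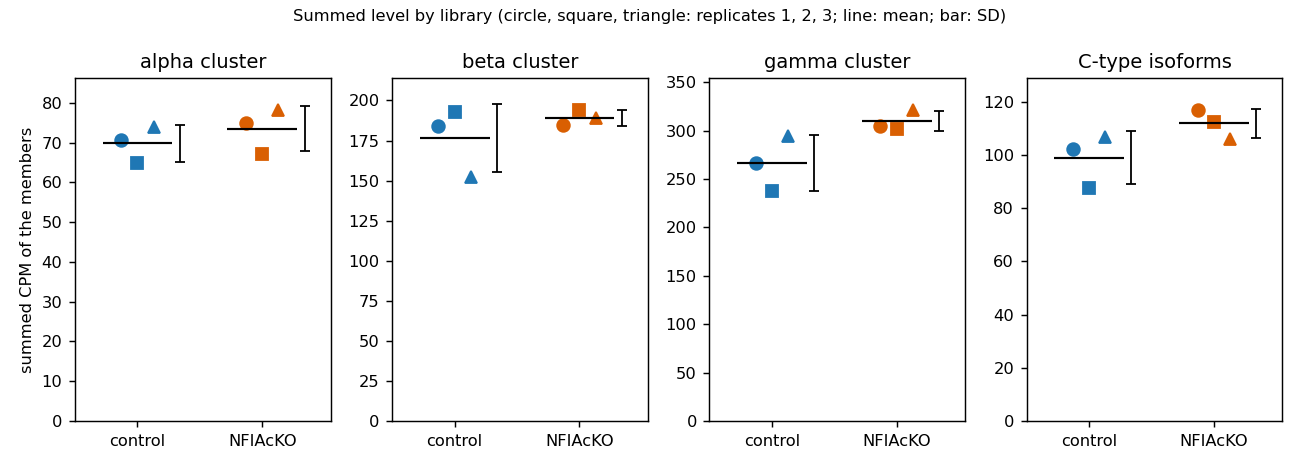
Summed CPM of the members of each cluster, and of the 5 C-type isoforms, in each library, with axes from 0. Shapes are replicates 1, 2 and 3, the line is the mean and the bar the SD of 3 libraries. The gamma sums are 237 to 295 CPM in the controls and 302 to 322 CPM in NFIAcKO, while alpha and beta sums overlap between groups.

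Correlations of log2 shares between 2 libraries, over the isoforms of a cluster, were 0.92 to 0.99 for alpha, 0.95 to 0.98 for beta and 0.96 to 0.99 for gamma (15 pairs of libraries each, over 12, 21 and 21 isoforms). These are descriptions over isoforms whose mean levels per kb span 29.9-fold, 17.7-fold and 32.0-fold, and single shares varied more. Pcdha9 held 9.43 ± 4.29% of alpha counts in the controls and 10.2 ± 2.18% in NFIAcKO (SD, n = 3). Pcdhac2 held 25.4 ± 1.001% of alpha counts in the controls and 26.4 ± 0.571% in NFIAcKO (SD, n = 3). Pcdhgc3 held 19.2 ± 0.382% and 19.9 ± 1.03% of gamma counts, and Pcdhb17 14.2 ± 1.64% and 13.4 ± 0.986% of beta counts. Groups did not overlap in the share of 8 of the 54 isoforms, or 14.8%. With no group difference, 3 against 3 libraries separate with a probability of 0.10. In CPM, 17.3% of all tested genes separated as higher in NFIAcKO and 16.1% as lower. The 8 are therefore given as a description. Shares of Pcdhb15, Pcdhb16, Pcdhb18 and Pcdhb22 were higher in NFIAcKO, and those of Pcdhb7, Pcdhb14, Pcdha7 and Pcdhga8 lower. Pcdhb15 stood at 1.67 ± 0.269% and 2.24 ± 0.229% of beta counts, and Pcdhb7 at 9.90 ± 0.858% and 8.04 ± 0.437%. None of the shares could pass in this design (exact permutation p = 0.10 at best, 0.68 when adjusted over 54 isoforms), and shares of a cluster are not independent of each other.

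Per kb of unshared exonic sequence, gamma isoforms were the most abundant, with a median of 3.98 CPM per kb over all 6 libraries against 2.71 for alpha and 1.96 for beta. The order in the alpha cluster began with Pcdhac2 at 6.13 ± 0.510 CPM per kb (SD over 6 libraries), clear of the next isoform in every library. Pcdha3, Pcdha7, Pcdha5, Pcdha9, Pcdha2 and Pcdha12 followed within 2.66 to 3.19 CPM per kb, and each overlapped its neighbour in the order. Pcdhac1, Pcdha1 and Pcdha8 were the lowest, at 0.88, 0.54 and 0.21 CPM per kb, and none of them overlapped the isoform above it. In the beta cluster levels declined without a gap, from Pcdhb17 at 5.44 ± 0.835 and Pcdhb7 at 4.65 ± 0.381 to Pcdhb13 and Pcdhb12 at 0.55 and 0.31 CPM per kb, and all 20 neighbouring pairs in the order overlapped. The gamma order began with Pcdhgc3 at 16.7 ± 1.99, Pcdhgb6 at 11.4 ± 1.97 and Pcdhga3 at 7.99 ± 1.76 CPM per kb. It ended with a gap between Pcdhga1 at 1.72 and the pair Pcdhgc5 and Pcdhgb8 at 0.55 and 0.52, the latter annotated as a polymorphic pseudogene. The remaining 19 of 20 neighbouring pairs overlapped. Where sequence overlapped by antisense genes is also left out, Pcdhgc3, with 1821 bp left, stands at 30.9 and Pcdhga11, with 1256 bp left, at 9.53 CPM per kb. On that measure Pcdhb12 stands at 0.84, above Pcdhb13, and Pcdha12 at 3.39, above Pcdha3. Spearman's rho between start position and level per kb was 0.05, 0.06 and -0.08 over 12, 21 and 21 isoforms, given as a description.

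**Figure D5:**
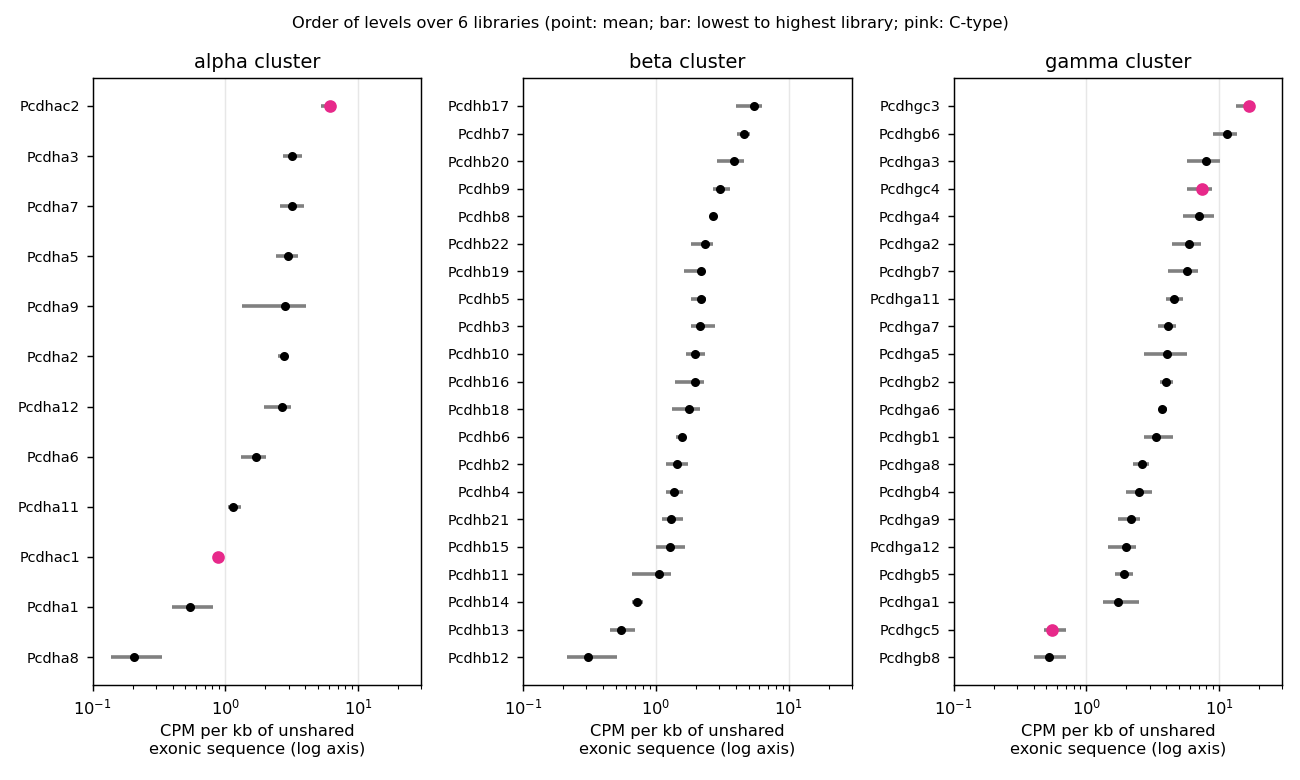
Isoforms of each cluster ordered by mean level in CPM per kb of unshared exonic sequence, on a log axis. Points are means over 6 libraries, bars run from the lowest to the highest library, and pink points are C-type isoforms. C-type isoforms lead the alpha and gamma orders (Pcdhac2 at 6.13 and Pcdhgc3 at 16.7) and also stand near their lower ends (Pcdhac1 at 0.88 and Pcdhgc5 at 0.55).

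The median biological coefficient of variation was 13.2% over the 54 isoforms, which had a median level of 7.98 CPM, against 11.2% over all tested genes at a median of 17.1 CPM. By cluster it was 15.3% for alpha, 12.8% for beta and 12.9% for gamma. File names carry a number that replicates 1 and 2 of both groups share, and another that replicate 3 of both groups shares, and what it stands for is not given in the sources used here. Both libraries of replicate 3 lay outside the range of the other 4 libraries for 12 of the 54 isoforms, or 22.2%, against 10.8% of all tested genes. In the gamma cluster these were 7 of 21, of which 4 were gamma B isoforms. With the group in the fit, the file number had an unadjusted p under 0.05 for 12 isoforms (22.2%, against 9.07% of all tested genes), but edgeR called none of them and 0.13% of all genes, in a test added after the data were seen. Pcdhga5 was such a gene, at 12.5 and 14.7 CPM in replicate 3 and 6.88 to 9.85 CPM in the others (log2 difference 0.65, adjusted p = 0.12). Pcdhgb7 went the other way, at 10.8 and 12.96 CPM against 13.6 to 17.9 CPM (-0.47, adjusted p = 0.24). Within libraries that share a file number, also looked at after the data were seen, the gamma sum was higher in NFIAcKO by 0.27 on the log2 scale for replicates 1 and 2 and by 0.13 for replicate 3. The beta sum differed by 0.01 and 0.31, the C-type sum by 0.28 and -0.01, Pcdhb15 by 0.51 and 0.62, and Pcdha9 by -0.34 and 1.59. With the file number as a block, edgeR called 2 beta isoforms (Pcdhb15 and Pcdhb18) and 3 gamma isoforms (Pcdhga3, Pcdhga4 and Pcdhgc3), where it called 17.6% of all genes.

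Of 13 genes in a list of protocadherins outside the clusters, with the related Cdhr1, 4 rose, none fell and 9 did not pass, with a median log2 fold change of 0.25 (7.86% of all genes rose). The smallest p was that of Pcdh1, with 65.3 ± 4.07 CPM in the controls and 84.2 ± 4.95 CPM in NFIAcKO (n = 3; log2 fold change 0.37, SE 0.08, adjusted p = 0.012, edgeR). Pcdh17 rose by 0.29 and the X-linked Pcdh19 by 0.38 (both adjusted p = 0.024), and Pcdh10 by 0.25 (adjusted p = 0.042). With the length and GC trend removed none of the 13 passed, and the median was 0.07. The count of 4 was 0 without control replicate 1 (where 2.76% of all genes were called) or NFIAcKO replicate 1 (2.48%). It was 1 without control replicate 2 (6.16%) or NFIAcKO replicate 3 (2.61%). Without NFIAcKO replicate 2 it stayed at 4 (5.66%), and without control replicate 3 it was 7 (28.4%).

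Of 23 genes for promoter choice and chromatin of the clusters, 10 rose, none fell and 13 did not pass, with a median of 0.22, where 7.86% of all tested genes rose and 6.08% fell. The cohesin subunits Smc1a and Smc3 had means ± SD of 153 ± 28.2 CPM in the controls and 218 ± 10.7 CPM in NFIAcKO (0.50, adjusted p = 0.012), and of 151 ± 19.2 and 197 ± 14.1 CPM (0.38, adjusted p = 0.020). The cohesin loader Nipbl rose from 142 ± 8.17 to 185 ± 14.2 CPM (0.38, adjusted p = 0.012). Tet1 and Tet3, enzymes of DNA demethylation, rose by 0.38 and 0.42 (adjusted p = 0.011 and 0.012). The DNA methyltransferase genes Dnmt1 and Dnmt3a rose by 0.41 and 0.38 (adjusted p = 0.026 and 0.012). Smchd1, a repressor of the clusters, rose by 0.37 (adjusted p = 0.013). Ctcf stood at 162 ± 10.9 and 176 ± 6.52 CPM (0.12, adjusted p = 0.36), and the cohesin subunit Rad21 at 390 ± 2.32 and 377 ± 22.2 CPM (-0.05, adjusted p = 0.74). Once the trend was removed Smc1a, Smc3 and Nipbl rose (adjusted p = 0.029, 0.028 and 0.027) and Mau2, the partner of Nipbl, fell by 0.30 (adjusted p = 0.032), while Tet1, Tet3, Dnmt1, Dnmt3a and Smchd1 did not pass (0.18, 0.47, 0.061, 0.66 and 0.38). The list's count was 0 without control replicate 1 (where 2.76% of all genes were called) and 8 without control replicate 2 (6.16%). It was 13 without control replicate 3 (28.4%), 3 without NFIAcKO replicate 1 (2.48%) or replicate 2 (5.66%), and 1 without NFIAcKO replicate 3 (2.61%).

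Among 24 partners at the membrane and in signalling, 5 rose, 2 fell and 17 did not pass, with a median of 0.10, where 7.86% of all tested genes rose and 6.08% fell. Cyfip2, a subunit of the WAVE complex that drives actin branching, rose from 254 ± 34.6 to 351 ± 4.46 CPM (0.47, adjusted p = 0.0091), and the WAVE genes Wasf1 and Wasf2 by 0.32 and 0.39 (adjusted p = 0.026 and 0.018). Brk1, the smallest subunit of that complex, fell by 0.42 (adjusted p = 0.0086). Prkca, a protein kinase C, rose by 0.34 (adjusted p = 0.014). With the trend removed 4 rose, Pak1, Cyfip2, Wasf1 and Wasf2, and Brk1 did not pass (-0.15, adjusted p = 0.14). The count of 7 was 0 without NFIAcKO replicate 3 (where 2.61% of all genes were called) and 1 without NFIAcKO replicate 1 (2.48%). It was 2 without control replicate 1 (2.76%) and 3 without control replicate 2 (6.16%) or NFIAcKO replicate 2 (5.66%). Without control replicate 3 it was 12 (28.4%).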

How the data were processed

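Whole spinal cords gave 3 control and 3 NFIAcKO RNA samples, with RNeasy extraction and stranded mRNA libraries, as the labels' protocols say. The deposited files hold raw counts for each gene symbol, without normalization. STAR 2.6.1a, HTSeq, DESeq2 and mm10 are named, without roles, in the submitters' processing notes. The annotation release and the strand setting were not given in the sources used here. Each file ends in 5 summary lines (16.9 to 19.4% of its total), kept out of library sizes and tests.

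Groups were compared with edgeR 4.0.16 in R 4.3.3 (quasi-likelihood, robust; TMM; filterByExpr; Benjamini-Hochberg over all 17711 tested genes). CPM are on TMM-scaled library sizes. DESeq2 1.42.0, limma-voom (limma 3.58.1), other scalings and filters, blocks, left-out libraries and removal of a length and GC trend (natural splines, 5 degrees of freedom, fitted at a mean log2 CPM over 1) were alternatives. The SE was derived from F as |log2 fold change| / sqrt(F). The fit was tested on simulated data. Single values were compared by exact permutation (scipy 1.17.1). Gene models are GENCODE M21 on GRCm38, the assembly mm10 names. Floors cover counting error only. No pair of libraries within a group agreed within sampling noise (chi-square per degree of freedom 11.9 or more), so none was treated as a library deposited again. The p-values measure the spread between these samples, which may be technical.

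Members and gene lists were chosen with earlier results of these data known. Named genes were the called isoforms, the 5 C-type isoforms, the 2 most abundant per kb and the ends of the fold changes in each cluster, Nfia, and up to 4 called members per list by smallest p. The other isoforms, list members and markers named were chosen after their values were seen. Remaining marker sums in control and NFIAcKO were 1721 to 1966 and 1410 to 2072 CPM for erythroid cells, 211 to 221 and 192 to 210 for sensory ganglion neurons, 636 to 785 and 714 to 1022 for mesenchyme, 1.78 to 4.56 and 2.70 to 4.15 for muscle and 82.4 to 132 and 127 to 135 for cartilage. Some list members are not reported here.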

Additional observations from a re-analysis of the deposited data

How the results depend on the processing

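No alpha isoform was called under any of the 17 alternatives. The beta count of 1 was 0 with upper quartile scaling, limma-voom and the replicate block, 3 in DESeq2, and 2 with the file number block, the length and GC trend removed (also by unshared length) or that removal with the replicate block. The gamma count of 0 was 3 with no filter, in DESeq2 and with the file number block, 1 with the replicate block alone or with the trend removed, and 2 with the trend removed by unshared length. The C-type count was 1 with no filter, in DESeq2, with the file number block and by unshared length. Of all genes, 13.9% were called in the main fit, 10.2% with no filter and 12.3% in limma-voom. DESeq2 called 25.3% of the genes it gave an adjusted p. Upper quartile scaling called 14.1%, the replicate block 14% and the file number block 17.6%. With the trend removed 7.69% were called, 8.46% with the replicate block as well and 7.67% by unshared length. Without 1 library, counts ranged from 0 to 1 for beta (1 without control replicate 3), 0 to 6 for gamma and 0 to 1 for C-type isoforms (6 and 1 without control replicate 3). The share of all genes called then ran from 2.48% (without NFIAcKO replicate 1) to 28.4% (without control replicate 3).

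Over all genes, 2468 calls became 1362 with the trend removed, 1499 with the replicate block as well, and 451 (without NFIAcKO replicate 1) to 5169 (without control replicate 3) when 1 library was left out. Upper quartile scaling moved the share of calls that were higher from 56.4 to 42.4%. Removing the trend gave 4 calls for promoter choice and chromatin genes and 4 for partners, also with the replicate block or by unshared length, and 0 for the non-clustered protocadherins (1 with the replicate block). Without 1 library these lists had 0 to 13, 0 to 12 and 0 to 7 calls, where 2.48 to 28.4% of all genes were called. Isoforms whose shares did not overlap then numbered 1 to 4 (alpha), 7 to 9 (beta) and 1 to 6 (gamma), where fewer libraries separate more easily. The 4 summed levels kept a positive difference in every alternative run for them, except the C-type sum within replicate 3 (-0.01). The cause of these differences was not tested.

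The replicate numbers were not shown to pair the samples, since deviations of same-numbered libraries correlated by 0.09, 0.12 and 0.12, although every library correlated best with its own number. The replicate block called 2472 genes. Pcdha8 was the scarcest isoform, at 15 to 38 counts per library.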
